A study of Homo sapiens with 12 samples.

Results

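The genes described here encode the enzyme complexes of oxidative phosphorylation. Members were the protein-coding genes of the count table whose symbols begin with NDUFA, NDUFB, NDUFC, NDUFS or NDUFV and a number, SDHA to SDHD, UQCR, COX4 to COX8, ATP5, or MT-ND, MT-CO, MT-ATP and MT-CYB. There were 102 such genes among the 60671 genes of the table. Of these, 89 are nuclear genes (39 of complex I, 4 of complex II, 9 of complex III, 17 of complex IV and 20 of complex V), and 13 are encoded by the mitochondrial genome (7 of complex I, 1 of complex III, 3 of complex IV and 2 of complex V). The complex was taken from the symbol. The rule uses symbols only.

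Oxidative phosphorylation takes place in the inner mitochondrial membrane. Complexes I and II pass electrons from NADH and succinate to ubiquinone, complex III passes them on to cytochrome c, and complex IV passes them to oxygen. Complexes I, III and IV pump protons as they do so, and complex V, the ATP synthase, uses the returning protons to make ATP. All of complex II is encoded in the nucleus, whereas each of the other complexes is assembled from nuclear and mitochondrial products. The mitochondrial genome is transcribed by its own RNA polymerase, as long precursors from both strands that are cut into mRNAs, and its topology is handled by topoisomerases that are themselves imported from the cytosol.

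Gene counts from RNA-seq were compared in 3 human leukemia lines with 4 libraries each. K562 is the parental line, derived from a chronic myeloid leukemia. K/VP.5 is a K562 clone made resistant by growth in etoposide, a poison of DNA topoisomerase II. K562/SSedit-2 is a single clone of K562 in which CRISPR/Cas9 with homology-directed repair destroyed the 5′ splice site between exon 19 and intron 19 of TOP2A, on some but not all copies of that gene, and which was not selected with drug. All lines were grown in the same medium, DMEM with fetal bovine serum, and harvested in mid-log phase, and neither derived line is represented by more than 1 clone, so that a difference between lines cannot be told apart from a difference between clones. The question for the members was how the respiratory chain transcripts of each genome and each complex differed between the lines.

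Total counts ranged from 28981722 to 43648830 per library. TOP2A was at 402 ± 59.1 CPM in K562, 275 ± 7.50 CPM in K/VP.5 and 192 ± 16.0 CPM in K562/SSedit-2 (mean ± SD, n = 4), where CPM is the count scaled to a common library size. All 8 marker genes of the K562 line, erythroid factors and globins such as GATA1, KLF1 and HBG1, passed the filter on low counts, which was applied once over all 12 libraries. They summed to 1348 to 1491 CPM in K562, 1249 to 1514 CPM in K/VP.5 and 1576 to 1905 CPM in K562/SSedit-2. In K/VP.5, 3 of the 8 were called higher than in K562 and 2 lower (edgeR, adjusted p under 0.10), and in K562/SSedit-2 5 were called higher and none lower. Of the markers of other cells, the 4 fibroblast genes summed to 4.56 to 12.1 CPM in K562, 46.4 to 58.3 CPM in K/VP.5 and 4.47 to 8.37 CPM in K562/SSedit-2, almost all of it from COL1A1 and COL1A2, while DCN and LUM were at 0.41 and 0.12 CPM on average in K562 and lower in the other lines. The 3 epithelial genes summed to 462 to 719, 724 to 878 and 529 to 727 CPM, mostly KRT8 and EPCAM, and the 4 lymphoid genes to at most 2.85 CPM in any library. The part of these genes' differences in the results below was not tested. The labels do not say that the libraries of a line came from separate cultures, so that p-values measure only the spread between these libraries.

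K562 replicate 1 stood apart from the other libraries, in mitochondrial transcripts and over all genes. A chi-square comparison of its counts over genes gave 53.5 to 56.4 per degree of freedom against the other K562 libraries, where all other pairs within a line were at 4.82 to 19.5. Counts on the mitochondrial chromosome made up 0.70% of its total, against 0.278% to 0.333% in the other K562 libraries and in the derived lines 0.311% to 0.471% (K/VP.5) and 0.316% to 0.388% (K562/SSedit-2). For 11 of the 13 mitochondrial members it was the highest of all 12 libraries, as it was for 33 of the 84 tested nuclear members and for 20.9% of all tested genes. Its level relative to the mean of the other K562 libraries had a median of 2.45 over the mitochondrial members, 1.10 over the nuclear members and 1.02 over all genes. The counts of members and the mitochondrial results are therefore given with and without it.

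Of the 102 members, 97 had enough counts to be tested, 84 nuclear and all 13 mitochondrial. The 5 others were COX4I2, COX6A2, COX7B2, COX8C and the read-through gene NDUFC2-KCTD14, with at most 3 counts in any library. A member was called where its adjusted p was under 0.10, from edgeR (quasi-likelihood F test, Benjamini-Hochberg adjustment across the 18626 genes that could be tested). Fold changes are on the log2 scale, with their SE, and K562 is the reference unless stated otherwise.

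Levels of different genes can be compared only per length. The length used here was that of all annotated exons of a gene together, 12600 bases for UQCRB and 13738 for NDUFA5. It can exceed the length of the mRNA, so that levels of nuclear members may be too low and comparisons between members and between complexes are uncertain. On this scale per length (TPM), the mitochondrial members stood above most of the nuclear ones in each line. The median over members was 791 TPM in K562, 749 TPM in K/VP.5 and 528 TPM in K562/SSedit-2 for the mitochondrial genome, against 60.1, 61.3 and 51.9 TPM for the nuclear members. Without K562 replicate 1 the K562 medians were 593 TPM for the mitochondrial and 57.2 TPM for the nuclear members, so that K562 was above K/VP.5 in the mitochondrial median only with that library. The single highest nuclear member was ATP5F1B, the catalytic beta subunit of ATP synthase (ENSG00000110955, GRCh38 chr12:56638175-56645984), at 2002 ± 111 TPM in K562, 2015 ± 106 TPM in K/VP.5 and 1731 ± 129 TPM in K562/SSedit-2. The mitochondrial member with the highest level was MT-ATP6, the proton-channel subunit a of the same enzyme, at 1855 ± 849, 2084 ± 491 and 1509 ± 65.9 TPM. The order of ATP5F1B and MT-ATP6 was within these SDs in K562 and K/VP.5, whereas the ranges of mean ± SD did not meet for K562/SSedit-2. Nor did they for K562 without replicate 1, where MT-ATP6 was at 1455 ± 352 TPM and ATP5F1B at 1994 ± 135 TPM (n = 3). By complex, the median nuclear member in K562 was at 45.8 TPM in complex I, 81.2 TPM in complex II, 124 TPM in complex III, 192 TPM in complex IV and 98.7 TPM in complex V.

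In K/VP.5, nuclear respiratory chain transcripts were more often lower than higher relative to K562. Of 84 tested nuclear members, 34 fell and 9 rose, whereas among all tested genes 26.1% were called lower and 26.2% were called higher. The median nuclear member had a log2 fold change of -0.17, against 0.01 over all tested genes. Replicates of the lines did not overlap for 31 of the 84, beside 43% of all tested genes, so that a separation of the replicates was not more frequent among the members than elsewhere. Most differences were small. Only NDUFS8 and ATP5MK fell by 2-fold or more, beside 15.6% of all tested genes that were called and changed by 2-fold in either direction, and without K562 replicate 1 neither of them reached it. The counts themselves moved little without that library, with 33 nuclear members lower and 9 higher, beside 26.5% and 25.9% of all tested genes in that fit. In bulk RNA, fewer cells with a transcript and less of it per cell cannot be told apart.

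**Figure D1:**
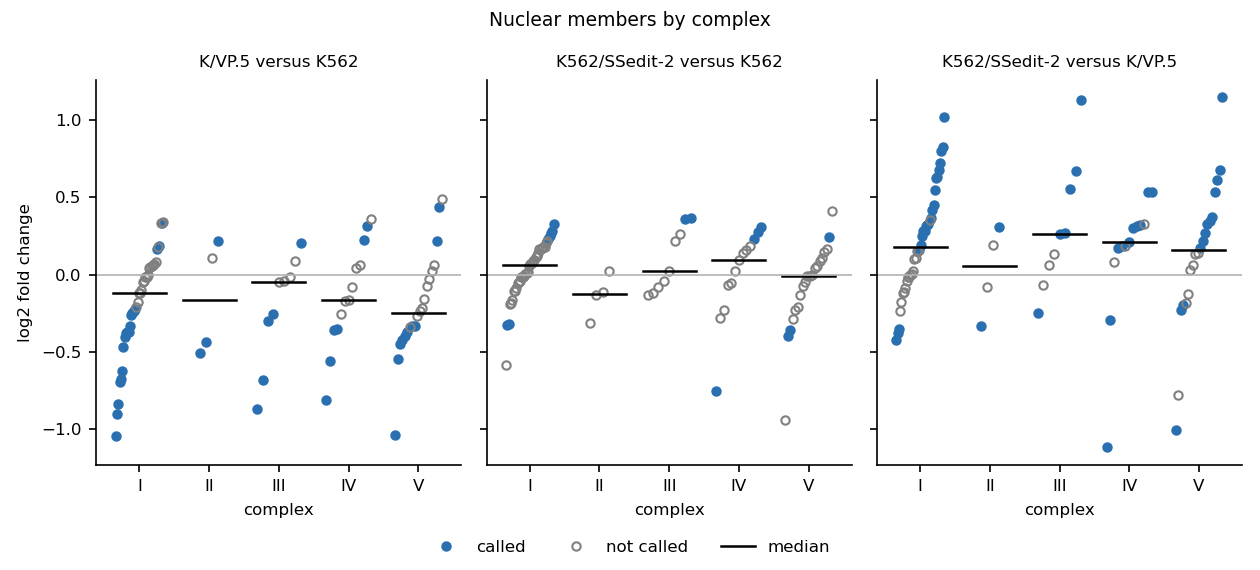
Log2 fold change (vertical axis) of the 84 tested nuclear members, grouped by complex (horizontal axis), in the 3 comparisons. Filled points were called at an adjusted p under 0.10, open points were not, and the bar is the median of the complex, which lay below 0 in all 5 complexes for K/VP.5 versus K562 and above 0 in all 5 for K562/SSedit-2 versus K/VP.5.

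Complex I, the NADH dehydrogenase, had 16 of its 38 tested nuclear members lower and 3 higher in K/VP.5, beside 26.1% and 26.2% of all tested genes, with a median log2 fold change of -0.12. NDUFS8 was at 105, 89.0, 78.0 and 73.4 CPM in K562 replicates 1 to 4, at 42.0, 39.0, 42.8 and 44.2 CPM in K/VP.5 and at 75.8, 78.4, 66.6 and 56.9 CPM in K562/SSedit-2. NDUFS8 (ENSG00000110717, GRCh38 chr11:68030617-68036644) encodes an iron-sulfur subunit of the matrix arm. All K/VP.5 libraries lay below all K562 libraries, and the log2 fold change was -1.04 ± 0.11 (SE), adjusted p = 1.17e-06. Without K562 replicate 1 it was -0.95 ± 0.10 (SE), adjusted p = 1.52e-07. NDUFB10 was at 131, 134, 129.6 and 131 CPM in K562 replicates 1 to 4, at 78.5, 63.8, 70.0 and 69.8 CPM in K/VP.5 and at 150.3, 142, 129.8 and 149 CPM in K562/SSedit-2. NDUFB10 (ENSG00000140990, GRCh38 chr16:1959538-1961975), an accessory subunit of the membrane arm, had nearly the same level in all K562 libraries, K562 replicate 1 included, and fell without overlap in K/VP.5, by 0.90 on the log2 scale (SE 0.07), adjusted p = 2.25e-08. NDUFB4 and NDUFB5 were also called lower, NDUFB4 with -0.84, and NDUFB5 with -0.62, at adjusted p = 0.000709 and 9.9e-06, both picked after their values were seen. NDUFB4 was 1.90 times as high in K562 replicate 1 as in the mean of the other K562 libraries, and without that library its log2 fold change was -0.57, with adjusted p = 7.29e-06.

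The 3 complex I members that rose in K/VP.5 were NDUFV3, NDUFS3 and NDUFS7, of which only NDUFV3 was named by the rule set out for naming genes. NDUFV3 was at 83.6, 83.0, 80.4 and 77.6 CPM in K562 replicates 1 to 4, at 104, 99.5, 100.5 and 104 CPM in K/VP.5 and at 76.9, 75.7, 80.0 and 72.6 CPM in K562/SSedit-2. The K/VP.5 libraries were above both other lines without overlap. For NDUFV3 (ENSG00000160194, GRCh38 chr21:42879644-42913304), a small subunit of the flavoprotein part of the enzyme, the log2 fold change was 0.33 ± 0.06 (SE), adjusted p = 0.000145. NDUFS3 and NDUFS7, core subunits of the matrix arm, had log2 fold changes of 0.16 and 0.19 at adjusted p = 0.0612 and 0.0681, and 51.4% of the exon bases of NDUFS7 are shared with other annotated genes, so that its count is uncertain. Without K562 replicate 1 NDUFS3 lost its call (adjusted p = 0.18).

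Complex II, succinate dehydrogenase, links the citric acid cycle to the chain, and its 4 subunits went in different directions in K/VP.5. SDHB was at 135, 93.1, 85.3 and 81.2 CPM in K562 replicates 1 to 4, at 70.6, 64.1, 70.7 and 72.1 CPM in K/VP.5 and at 79.2, 82.7, 76.5 and 78.8 CPM in K562/SSedit-2. SDHB, the iron-sulfur subunit, was lower in all K/VP.5 libraries than in any K562 library, at -0.51 ± 0.12 (SE), adjusted p = 0.00254, and K562 replicate 1 was 1.56 times the mean of the other K562 libraries. SDHC was at 113, 92.7, 99.9 and 100.1 CPM in K562 replicates 1 to 4, at 124, 117, 116 and 115 CPM in K/VP.5 and at 94.3, 88.9, 97.3 and 94.2 CPM in K562/SSedit-2. SDHC, a membrane anchor, was higher in all K/VP.5 libraries than in any K562 library, at 0.22 ± 0.07 (SE), adjusted p = 0.0123. SDHD, the other anchor, ranged over 46.9 to 83.1 CPM in K562 and 39.5 to 48.8 CPM in K/VP.5, with overlap, and was called lower at -0.44 ± 0.14 (SE), adjusted p = 0.0206. The catalytic subunit SDHA, at 53.1 ± 3.98 and 57.1 ± 1.68 CPM (mean ± SD), was not called, with adjusted p = 0.203. Leaving out K562 replicate 1, the same calls were made for all 4 genes, at -0.34 for SDHB, 0.25 for SDHC, -0.23 for SDHD and 0.05 for SDHA on the log2 scale.

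Of the 9 nuclear members of complex III, the cytochrome bc1 complex, 4 fell and 1 rose in K/VP.5, beside 26.1% and 26.2% of all tested genes. The falls were UQCRC2, UQCR10 (-0.68), UQCRB (-0.30) and UQCRFS1 (-0.25), the last of these the Rieske iron-sulfur protein. For UQCR10, K562 replicate 1 was 1.99 times the mean of the other K562 libraries, and leaving it out gave -0.39. UQCRC2 was at 255, 196, 192 and 211 CPM in K562 replicates 1 to 4, at 126, 118, 116 and 108 CPM in K/VP.5 and at 273, 245, 221 and 286 CPM in K562/SSedit-2. UQCRC2 (ENSG00000140740, GRCh38 chr16:21953288-21983660) encodes a core protein of the matrix side. Its K/VP.5 libraries lay below every library of the other lines, and the log2 fold change was -0.87 ± 0.10 (SE), adjusted p = 1.38e-06. UQCR11, a small subunit, was the member that rose, from 46.7 ± 2.54 to 53.9 ± 3.87 CPM, by 0.21 ± 0.07 (SE), adjusted p = 0.0221. The partner core protein UQCRC1 was at 274 ± 7.73 CPM in K562 and 272 ± 11.9 CPM in K/VP.5, with a log2 fold change of -0.01 ± 0.06 (SE), adjusted p = 0.86.

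In complex IV, cytochrome c oxidase, 4 of 13 tested nuclear members fell and 2 rose in K/VP.5, where the shares over all tested genes were 26.1% and 26.2%, so that the falls were near that background. COX4I1 was at 435, 474, 474 and 426 CPM in K562 replicates 1 to 4, at 595, 532, 561 and 561 CPM in K/VP.5 and at 467, 452, 463 and 453 CPM in K562/SSedit-2. COX4I1 (ENSG00000131143, GRCh38 chr16:85798633-85807068), the usual isoform of regulatory subunit 4, was higher in K/VP.5 than in both other lines without overlap, at 0.32 ± 0.06 (SE), adjusted p = 0.000271. COX7A2, the widely expressed isoform of subunit 7A, rose from 138 ± 7.29 to 161 ± 10.5 CPM, by 0.22 ± 0.06 (SE), adjusted p = 0.0085. COX7B was at 114, 53.3, 46.2 and 45.6 CPM in K562 replicates 1 to 4, at 43.7, 35.2, 36.0 and 32.0 CPM in K/VP.5 and at 58.1, 56.5, 40.5 and 57.6 CPM in K562/SSedit-2. COX7B had the largest fall of the complex, -0.81 ± 0.23 (SE), adjusted p = 0.00927, but K562 replicate 1 was 2.35 times the mean of the other K562 libraries, and with that library left out the value was -0.42 ± 0.12 (SE), adjusted p = 0.00658. The remaining falls were COX5B (-0.35), COX6A1 (-0.56) and COX8A (-0.36). COX6A1 was 1.74 times as high in K562 replicate 1 as in the mean of the other K562 libraries, and leaving out that library gave -0.33. COX8A had an adjusted p of 0.048 with all libraries and 0.125 without K562 replicate 1. NDUFA4, which carries a complex I name but is known as a subunit of complex IV, was not called with all libraries, at 0.34 ± 0.17 (SE), adjusted p = 0.111. Without K562 replicate 1 it was called higher, at 0.60 ± 0.09 (SE), adjusted p = 2.22e-05.

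In complex V, 8 of 20 nuclear members fell and 2 rose in K/VP.5, beside 26.1% and 26.2% of all tested genes. ATP5MK was at 152, 102, 93.9 and 90.5 CPM in K562 replicates 1 to 4, at 60.0, 47.8, 53.1 and 52.5 CPM in K/VP.5 and at 122, 117, 105 and 128 CPM in K562/SSedit-2. ATP5MK (ENSG00000173915, GRCh38 chr10:103389041-103396492) encodes a small membrane subunit associated with dimers of the enzyme. K/VP.5 lay below both other lines without overlap, and the log2 fold change was -1.04 ± 0.14 (SE), adjusted p = 8.63e-06 with all libraries and -0.86 ± 0.08 (SE), adjusted p = 6.28e-08 without K562 replicate 1. ATP5MG was at 25, 24.4, 28.3 and 25.8 CPM in K562 replicates 1 to 4, at 39.0, 34.8, 33.8 and 32.8 CPM in K/VP.5 and at 31.6, 28, 29.4 and 33.4 CPM in K562/SSedit-2. ATP5MG, the membrane subunit g, had the largest rise among the called nuclear members, 0.44 ± 0.08 (SE), adjusted p = 0.000285, with no overlap between K562 and K/VP.5. ATP5F1A, the alpha subunit of the catalytic head, rose from 703 ± 28.4 to 818 ± 26.8 CPM, by 0.22 ± 0.05 (SE), adjusted p = 0.00271, while its partner ATP5F1B was not called, at -0.07 ± 0.05 (SE), adjusted p = 0.242. Of the 3 genes for subunit c of the proton-driven ring, ATP5MC2 fell (-0.33, adjusted p = 0.00382) and ATP5MC1 and ATP5MC3 were not called (-0.23 and -0.03). The inhibitor ATP5IF1, which blocks ATP hydrolysis by the enzyme, was at 61.4 ± 5.33 and 55.0 ± 2.32 CPM and was not called (adjusted p = 0.142).

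**Figure D2:**
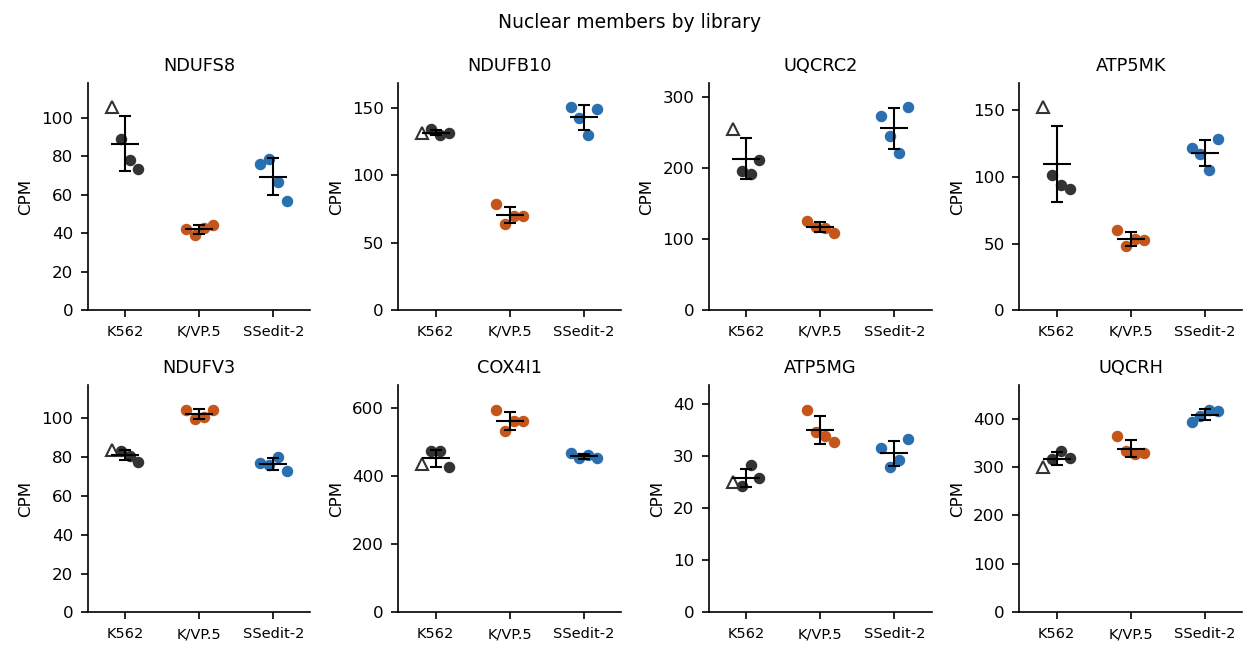
CPM (vertical axes, from 0) of 8 nuclear members in each of the 12 libraries, with the mean and SD of the 4 libraries of a line; SSedit-2 stands for K562/SSedit-2, and the open triangle is K562 replicate 1. NDUFS8, NDUFB10, UQCRC2 and ATP5MK were lowest in K/VP.5 without overlap, NDUFV3, COX4I1 and ATP5MG were highest there, with overlap only for ATP5MG against K562/SSedit-2, and UQCRH was highest in K562/SSedit-2.

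Genes of the respiratory chain are known to carry sites for NRF1 and for GABPA, a factor of the ETS family, in their promoters, and the 250 bases before the RefSeq start were searched for them. Promoters of 70 of the 89 nuclear members were found in the RefSeq table (GRCh38.p14), and a gene was counted once where it had several starts. Letters of the NRF1-type motif (GCGC and GCGC with any base and a T between them), on either strand, were present in 21.4% of the 70 members, against 6.21% of 27195 genes. CCGGAAG, the ETS or GABPA-type motif, was present in 25.7% of the members against 10.2% of all, and AAGATGGCG, the YY1-type motif, in 1.43% (1 member) against 0.787%. The 27195 genes were not limited to expressed ones, and a share over expressed genes was not computed. Among the 32 matched members that fell in K/VP.5, 25% held the NRF1-type and 25% the ETS-type letters, which is close to the shares over all matched members. Shown here are NDUFS8, NDUFB10, UQCRC2 and ATP5MK, which differed by 2-fold in a comparison with K/VP.5 (as did COX6B2, at a low level, and the read-through gene ATP5MF-PTCD1, not shown), and 3 called members picked because they hold matches, NDUFB4 and SDHB (lower in K/VP.5) and UQCR11 (higher). Each runs 5′ to 3′ on the strand of the gene and was ended before the annotated start of the gene in GENCODE, with the motif matches in capitals.
NDUFS8 (GRCh38.p14 chr11:68030431-68030616, plus strand): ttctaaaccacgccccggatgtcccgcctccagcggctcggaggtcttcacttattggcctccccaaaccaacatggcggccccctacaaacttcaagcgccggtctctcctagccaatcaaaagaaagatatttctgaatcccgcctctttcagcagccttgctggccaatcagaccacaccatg
NDUFB10 (GRCh38.p14 chr16:1959288-1959537, plus strand): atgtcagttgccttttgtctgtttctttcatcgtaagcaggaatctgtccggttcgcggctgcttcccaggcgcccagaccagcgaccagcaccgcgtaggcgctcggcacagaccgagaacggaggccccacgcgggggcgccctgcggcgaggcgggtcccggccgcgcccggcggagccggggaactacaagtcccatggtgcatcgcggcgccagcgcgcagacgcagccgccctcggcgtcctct
UQCRC2 (GRCh38.p14 chr16:21953111-21953287, plus strand): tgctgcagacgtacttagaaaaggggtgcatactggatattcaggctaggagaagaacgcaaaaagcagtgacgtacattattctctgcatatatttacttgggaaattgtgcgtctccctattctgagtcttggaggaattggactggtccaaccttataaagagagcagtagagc
ATP5MK (GRCh38.p14 chr10:103396493-103396725, minus strand): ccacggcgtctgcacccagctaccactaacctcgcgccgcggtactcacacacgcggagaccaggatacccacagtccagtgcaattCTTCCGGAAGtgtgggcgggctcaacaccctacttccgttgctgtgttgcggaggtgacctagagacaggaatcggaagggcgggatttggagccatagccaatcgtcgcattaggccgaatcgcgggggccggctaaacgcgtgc
NDUFB4 (GRCh38.p14 chr3:120596086-120596327, plus strand): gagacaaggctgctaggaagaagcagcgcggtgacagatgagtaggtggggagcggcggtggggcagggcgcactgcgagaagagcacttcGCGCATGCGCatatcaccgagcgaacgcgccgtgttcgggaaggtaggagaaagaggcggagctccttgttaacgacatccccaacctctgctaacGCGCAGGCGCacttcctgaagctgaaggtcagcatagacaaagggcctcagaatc
SDHB (GRCh38.p14 chr1:17054033-17054282, minus strand): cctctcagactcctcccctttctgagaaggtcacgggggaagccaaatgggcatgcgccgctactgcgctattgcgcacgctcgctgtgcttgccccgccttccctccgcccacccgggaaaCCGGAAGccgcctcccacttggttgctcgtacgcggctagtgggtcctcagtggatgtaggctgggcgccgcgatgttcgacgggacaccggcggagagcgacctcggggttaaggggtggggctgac
UQCR11 (GRCh38.p14 chr19:1605474-1605712, minus strand): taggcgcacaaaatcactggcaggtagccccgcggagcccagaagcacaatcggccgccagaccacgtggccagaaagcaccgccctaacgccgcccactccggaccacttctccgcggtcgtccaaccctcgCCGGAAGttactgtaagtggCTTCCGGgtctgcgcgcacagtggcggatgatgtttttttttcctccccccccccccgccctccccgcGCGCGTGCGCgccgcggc

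None of the 3 motifs was found in the windows of NDUFS8, NDUFB10 and UQCRC2. ATP5MK, which fell, holds 2 overlapping ETS-type matches, 1 on each strand. NDUFB4 has NRF1-type letters at 2 places, of which one reads as the motif on both strands and so counts as 2 of its 3 matches. UQCR11, which rose, holds 1 NRF1-type and 2 ETS-type matches in the printed window and a second NRF1-type match in the 250 bases that were searched, and SDHB, which fell, holds 1 ETS-type match. The matches are letters in a window and were not tested as binding sites.

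The mitochondrial members as a group had 1 gene called higher and none called lower in K/VP.5 with all libraries (edgeR, adjusted p under 0.10), beside 26.2% and 26.1% of all tested genes. No member had replicates that did not overlap, beside 43% of all tested genes. Their summed level was 7273 CPM in K562 replicate 1 and 2675 to 3172 CPM in the other K562 libraries, 2990 to 4484 CPM in K/VP.5 and 3116 to 3842 CPM in K562/SSedit-2. The nuclear members summed to 10574 to 11949 CPM, 9740 to 10868 CPM and 11325 to 11575 CPM in the 3 lines. Expressed as the log2 ratio of the mitochondrial to the nuclear sum, the libraries lay at -0.72, -2.06, -2.03 and -1.74 in K562, at -1.48, -1.12, -1.80 and -1.74 in K/VP.5 and at -1.80, -1.58, -1.86 and -1.82 in K562/SSedit-2. The K562 range took in all other libraries. On that log2 scale the mean of K/VP.5 differed from the mean of K562 by 0.10, or by 0.41 once K562 replicate 1 was left out, and the mean of K562/SSedit-2 by -0.13, or by 0.18.

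**Figure D3:**
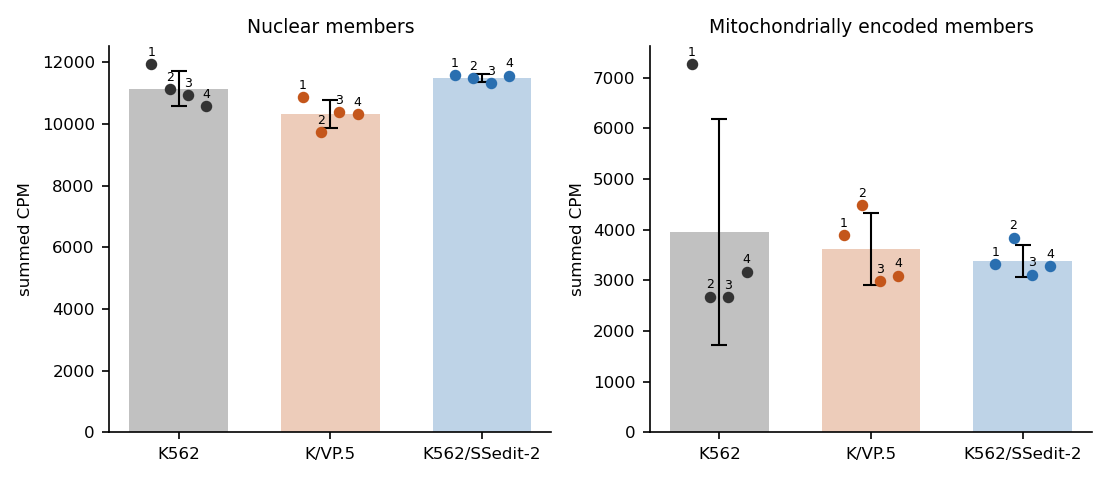
Summed CPM (vertical axes, from 0) of the nuclear and of the mitochondrially encoded members by line. Bars are means, error bars SDs of 4 libraries, and the points are single libraries with their replicate number; K562 replicate 1 stands at 7273 CPM in the mitochondrial sum, above all other libraries, which lie between 2675 and 4484 CPM.

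Single mitochondrial genes varied in how far K562 replicate 1 stood out. MT-CO1 was at 1841, 742, 638 and 791 CPM in K562 replicates 1 to 4, at 958, 1055, 761 and 729 CPM in K/VP.5 and at 962, 1034, 784 and 909 CPM in K562/SSedit-2. MT-CO1 encodes the catalytic subunit of complex IV. MT-CO3 was at 1041, 291, 262 and 326 CPM in K562 replicates 1 to 4, at 396, 419, 302 and 275 CPM in K/VP.5 and at 389.7, 397, 301 and 360.3 CPM in K562/SSedit-2. Both genes were highest in K562 replicate 1, while the other 11 libraries overlapped across lines. For MT-CO2, the copper-binding subunit that receives electrons from cytochrome c, K562 replicate 1 was at 637 CPM and 3.96 times the mean of the other K562 libraries. For MT-ND4L, a small core subunit of complex I, that ratio was the highest of the group, 4.34, and for MT-ND6 the lowest, 1.07. Across the 7 complex I genes the ratios were 2.32 for MT-ND1, 2.66 for MT-ND2, 1.61 for MT-ND3, 2.45 for MT-ND4 and 1.78 for MT-ND5 beside the values for MT-ND4L and MT-ND6. They were 2.08 for MT-CYB, the mitochondrial gene of complex III, 2.54 for MT-CO1 and 3.55 for MT-CO3, and 2.20 and 2.97 for the ATP synthase genes MT-ATP6 and MT-ATP8. MT-ATP8 shares 22.2% of its exon bases with MT-ATP6, and MT-ND4L 2.36% with MT-ND4, so that differences within these pairs are uncertain. MT-ND6 and MT-ND5 were the members for which K562 replicate 1 was not the highest library, and a K/VP.5 library was higher for both.

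**Figure D4:**
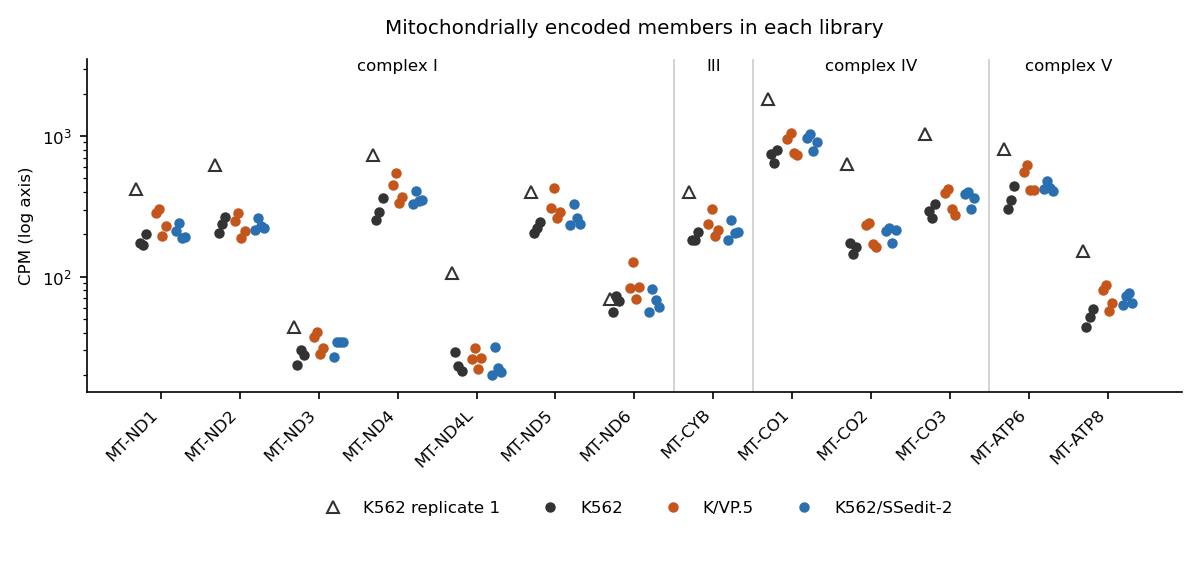
CPM on a log axis of the 13 mitochondrially encoded members (horizontal axis, by complex) in the 12 libraries. Points are single libraries, colored by line, and the open triangle is K562 replicate 1, which lies above all other libraries except for MT-ND5 and MT-ND6.

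MT-ND6 (ENSG00000198695, GRCh38 chrM:14149-14673) encodes a core subunit of complex I and is the only member transcribed from the light-strand promoter. MT-ND6 was at 69.7, 56.2, 72.9 and 67.1 CPM in K562 replicates 1 to 4, at 83.2, 127, 68.9 and 83.8 CPM in K/VP.5 and at 56.3, 81.1, 68.6 and 60.3 CPM in K562/SSedit-2. The lines overlapped, with K/VP.5 replicate 2 highest of all and K/VP.5 replicate 3 within the range of K562. MT-ND6 was the only mitochondrial member called with all libraries, 0.45 ± 0.16 (SE), adjusted p = 0.0263 in K/VP.5, and its log2 fold change was the same without K562 replicate 1 (0.45 ± 0.16 (SE), adjusted p = 0.026). Without K/VP.5 replicate 2 the call was lost, and no mitochondrial member was called higher. In K562/SSedit-2 MT-ND6 had a log2 fold change of 0.00 ± 0.16 (SE), adjusted p = 0.995 from K562, and of -0.45 ± 0.16 (SE), adjusted p = 0.0265 from K/VP.5. The call against K/VP.5 was lost without K/VP.5 replicate 2 or without K562/SSedit-2 replicate 1. As a share of the summed members of the other strand, it was 0.967% in K562 replicate 1 and 2.14% to 2.80% in the other K562 libraries, 2.18% to 2.92% in the K/VP.5 libraries and 1.73% to 2.25% in those of K562/SSedit-2. Whether the counting used the strand is not given in the sources used here, and without strand MT-ND6 and RNA antisense to it cannot be told apart.

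When K562 replicate 1 was left out, 10 of 13 mitochondrial members were called higher in K/VP.5 than in K562 and none lower, while 25.9% of all tested genes were called higher in that fit. Their log2 fold changes reached from 0.25 for MT-CO1 to 0.50 for MT-ND5. The members not called were MT-ND2, MT-ND4L and MT-CO3, at -0.04, 0.08 and 0.23. MT-ND4, which overlaps MT-ND4L, was called, at 0.47. MT-ND1, for example, was at 420.2, 172, 169 and 202 CPM in K562 and 281, 305, 194 and 229.5 CPM in K/VP.5. Its log2 fold change was 0.07 ± 0.23 (SE), adjusted p = 0.833 with all libraries and 0.46 ± 0.12 (SE), adjusted p = 0.0049 without K562 replicate 1. Leaving out K562 replicate 2, 3 or 4 instead gave 2, 3 and 2 mitochondrial members called lower, and leaving out K/VP.5 replicate 2 gave none higher and 1 lower. With all libraries and no filter on low counts, 2 were called higher and 5 lower. Within K/VP.5, replicates 1 and 2 held the higher values of all 13 members except MT-ND4L and MT-ND6, for which replicate 4 was above replicate 1. The members thus varied together between libraries, and their calls are not independent of each other. K562 replicate 1 had also been set apart partly for its high mitochondrial counts, and leaving out a high library by itself raises these fold changes.

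**Figure D5:**
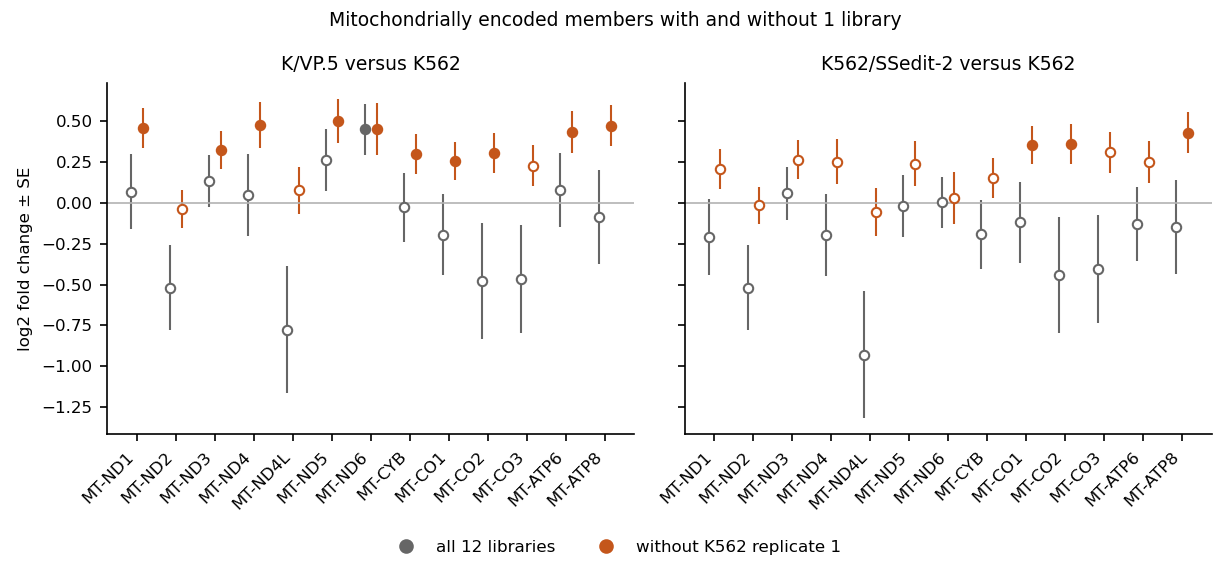
Log2 fold change with SE (vertical axis) of the 13 mitochondrially encoded members against K562, for K/VP.5 (left) and K562/SSedit-2 (right), fitted with all 12 libraries (gray) and without K562 replicate 1 (orange). Filled points were called at an adjusted p under 0.10, which were 1 and then 10 members on the left and 0 and then 3 members on the right.

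The splice-site edited line differed from K562 in fewer members, and more of its called nuclear members were higher than lower. In K562/SSedit-2, 11 of 84 nuclear members rose and 5 fell, beside 4.86% of all tested genes called higher and 7.79% called lower, with a median log2 fold change of 0.02. None changed by 2-fold, beside 2.06% of all tested genes, and replicates did not overlap for 10 of the 84, beside 13.2% of all. Leaving out K562 replicate 1 gave 24 nuclear members called higher and 1 lower, where 9.56% and 9.94% of all tested genes were, and again none past 2-fold, where 2.3% of all tested genes were. With each of the 12 libraries left out in turn, 6 to 24 nuclear members were called higher and 0 to 7 lower. No mitochondrial member was called with all libraries (edgeR, adjusted p under 0.10), and 3 were called higher without K562 replicate 1, MT-CO1 (0.35), MT-CO2 (0.36) and MT-ATP8 (0.43). MT-ATP6, which overlaps MT-ATP8, was not called in that fit (0.25). With all libraries and no filter on low counts, 7 mitochondrial members were called lower, and leaving out K562 replicate 3 or 4 gave 1 lower each.

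The members that rose in K562/SSedit-2 were 5 of 38 tested in complex I, 2 of 9 in complex III, 3 of 13 in complex IV and 1 of 20 in complex V. Beside these stand 4.86% of all tested genes, which complex V was near. In the fit without K562 replicate 1 these counts were 9, 4, 7 and 4, beside 9.56% of all tested genes. UQCRH was at 299.7, 316, 334 and 319 CPM in K562 replicates 1 to 4, at 363, 334, 327 and 328 CPM in K/VP.5 and at 393, 405, 418 and 416 CPM in K562/SSedit-2. UQCRH (ENSG00000173660, GRCh38 chr1:46303698-46316776), the hinge protein of complex III, lay above both other lines in all K562/SSedit-2 libraries, and its log2 fold change from K562 was 0.36 ± 0.06 (SE), adjusted p = 0.000821. It was singled out after its values were seen, for the lowest adjusted p among the members in this comparison. UQCRHL, a nearly identical gene whose reads may be split with it, was at 24.0 ± 2.25 and 27.9 ± 1.55 CPM and had an adjusted p of 0.138, or 0.0696 without K562 replicate 1. UQCRB, the ubiquinone-binding subunit of the same complex, was at 138, 186, 167 and 167 CPM in K562 and 206, 215, 193 and 235 CPM in K562/SSedit-2, without overlap, and rose by 0.37 ± 0.09 (SE), adjusted p = 0.0176. COX7A2 rose from 138 ± 7.29 to 171 ± 5.80 CPM, by 0.31 ± 0.06 (SE), adjusted p = 0.00607, and was thus above K562 in both derived lines, 0.22 in K/VP.5 and 0.31 here. NDUFA5, an accessory subunit of complex I, rose from 179 ± 15.9 to 217 ± 14.9 CPM, by 0.28 ± 0.07 (SE), adjusted p = 0.0297. ATP5MG was called higher at 0.24 ± 0.08 (SE), adjusted p = 0.0824, with overlapping replicates.

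The 5 members that were called lower in K562/SSedit-2 were NDUFA11, NDUFS8, COX6B2, ATP5F1D and ATP5MC1, of which NDUFA11 and ATP5F1D are outside the rule and are named because they complete the count. Their adjusted p lay between 0.0534 and 0.0977, close to the threshold of 0.10. COX6B2, an isoform of subunit 6B known from testis, was at only 1.13 to 2.39 CPM in K562 and 0.835 to 1.10 CPM in K562/SSedit-2, without overlap, and the log2 fold change was -0.75. NDUFS8 was at 86.5 ± 14.3 and 69.4 ± 9.76 CPM with overlapping replicates, -0.32 with all libraries, and had an adjusted p of 0.169 without K562 replicate 1, a fit in which only COX6B2 of the 5 was called. Complex II had no member called in this comparison, at 0.03 for SDHA, -0.32 for SDHB, -0.11 for SDHC and -0.13 for SDHD. Equal replicate numbers of K562 and K562/SSedit-2 deviated together, and a fit that took this number as a block called 4 more members, SDHB (-0.29, adjusted p = 0.0971), UQCRC2 (0.27, 0.0366), COX5B (0.19, 0.0943) and ATP5MF (0.42, 0.0288).

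Compared with each other, the derived lines showed calls for most nuclear members. In K562/SSedit-2 relative to K/VP.5, 43 of 84 nuclear members were called higher and 10 lower, beside 26.2% and 27.8% of all tested genes and 54% in either direction, with a median of 0.19. The replicates did not overlap for 40 of the 84 nuclear members, beside 47.4% of all tested genes, and for none of the mitochondrial ones, of which MT-ND6 alone was called, lower in K562/SSedit-2. The call of MT-ND6 depended on single libraries, as given above. Leaving out K562 replicate 1, 50 nuclear members were called higher and 10 lower, beside 30.2% and 28.8% of all tested genes and 59% in either direction, and MT-ND1 and MT-ND5 were called lower along with MT-ND6. By complex the counts called higher and lower were 19 and 3 of 38 in complex I, 1 and 1 of 4 in complex II, 5 and 1 of 9 in complex III, 8 and 2 of 13 in complex IV, and 10 and 3 of 20 in complex V. Members past 2-fold, 15.8% of all tested genes, were ATP5MK (1.15 ± 0.14 (SE), adjusted p = 2.85e-06), UQCRC2 (1.13 ± 0.10 (SE), adjusted p = 6.13e-08) and NDUFB10 (1.02 ± 0.07 (SE), adjusted p = 5.03e-09), all higher in K562/SSedit-2. COX6B2 (-1.12) and ATP5MF-PTCD1 (-1.01) were lower. ATP5MF-PTCD1 is a read-through gene at 0.267 ± 0.116 and 0.128 ± 0.0801 CPM that shares 93.4% of its exon bases with other genes. COX5B, a nuclear subunit on the matrix side of complex IV, was higher without overlap, from 176 ± 15.7 CPM in K/VP.5 to 255 ± 8.82 CPM, at 0.53 ± 0.07 (SE), adjusted p = 1.17e-05. This comparison shares its libraries with those above and is no independent support for them.

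Some subunits exist in isoforms that differ between tissues, and the K562 lines used the widely expressed ones. On the TPM scale, COX4I1 was at 250.4 ± 13.8 TPM in K562, while COX4I2, known from lung, had at most 3 counts in any library. COX6A1, COX6B1 and COX8A were at 125 ± 36.0, 331 ± 68.7 and 633 ± 126 TPM. Their counterparts were COX6A2, known from heart and muscle, with no count in any library, COX6B2, at 1.15 ± 0.348 TPM, and COX8C, with at most 2 counts. COX7A2 was at 192 ± 17.5 TPM and COX7A1, the isoform known from heart and muscle, at 0.440 to 1.21 CPM in K562, 0.650 to 0.949 CPM in K/VP.5 and 0.614 to 1.18 CPM in K562/SSedit-2, where it was called in no comparison with all libraries. Once K562 replicate 1 was left out, COX7A1 was called lower in K/VP.5 (-0.50, adjusted p = 0.0987). COX7A2L, a relative of subunit 7A that takes part in joining complexes III and IV, was at 93.2 ± 11.4, 88.3 ± 5.53 and 99.3 ± 4.14 CPM and was called with all libraries only between the derived lines, at 0.17 ± 0.08 (SE), adjusted p = 0.094, and also in K562/SSedit-2 against K562 once K562 replicate 1 was left out (0.18). COX7B2, known from testis, had no count, and NDUFA4L2, a relative of NDUFA4 known from hypoxic cells, was at 1.97 to 3.38 CPM in K562 and called in no comparison.

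Other genes that serve the same system were read from lists, whose counts stand beside 26.2% of all tested genes called higher and 26.1% called lower in K/VP.5. For K562/SSedit-2 these shares were 4.86% and 7.79%. The carriers CYC1, the cytochrome subunit of complex III that has no UQCR symbol, and CYCS, cytochrome c itself, were not called in K/VP.5 (-0.08 and -0.13), and CYCS rose in K562/SSedit-2 by 0.22 ± 0.07 (SE), adjusted p = 0.0779. Among 17 assembly factors of complex I, 6 fell in K/VP.5, down to -0.71 for NDUFAF3, and NDUFAF1 (0.40), ECSIT (0.37), FOXRED1 (0.37), NDUFAF7 (0.26) and ACAD9 (0.25) rose, while none was called in K562/SSedit-2 with all libraries and 2 were called higher there without K562 replicate 1. Of 24 factors for complex IV, 7 rose and 9 fell in K/VP.5, from -0.99 for COA4 to 1.34 for COX19. In K562/SSedit-2 PET100 (0.43) rose and TMEM177 (-0.44) and SCO1 (-0.17) fell. Of 4 factors for complex II, SDHAF1 (0.42) rose and SDHAF3 (-0.65) and SDHAF2 (-0.36) fell in K/VP.5. Of 6 for complex III, UQCC1 (0.40), UQCC3 (0.30) and BCS1L (0.26) rose and none fell there, and of 5 for complex V, ATPAF2 (0.20) rose and none fell. In K562/SSedit-2 the only calls in these 3 lists were SDHAF4 (-0.56), lower, and TMEM242 (0.32), higher. Once K562 replicate 1 was left out, no factor of complex V was called in K/VP.5, 1 of complex II fell there in place of 2, and 1 of complex II rose in K562/SSedit-2 in place of none.

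Mitochondrial ribosomal proteins, which translate the mitochondrial mRNAs, were measured with 77 tested genes, of which 33 fell and 4 rose in K/VP.5, with a median log2 fold change of -0.15, beside the same 26.1% and 26.2% of all tested genes. The values reached down to -1.22 for MRPL23, and the rises were MRPL30 (0.31), MRPL38 (0.29), MRPL37 (0.26) and MRPL9 (0.25). In K562/SSedit-2 MRPS18C (0.69), MRPL33 (0.30), MRPL14 (0.29) and MRPL32 (0.26) rose and 7 genes fell, beside 4.86% and 7.79% of all tested genes, which these counts were near. Leaving out K562 replicate 1, 34 fell and 7 rose in K/VP.5, beside 26.5% and 25.9% of all tested genes in that fit. In K562/SSedit-2 6 fell and 9 rose, near the 9.94% and 9.56% of all tested genes in the same fit. Of 14 enzymes of the citric acid cycle, IDH2 (-1.21), IDH3G (-0.69), FH (-0.35) and SUCLG2 (-0.26) fell and SUCLA2 (0.83) and MDH2 (0.19) rose in K/VP.5. IDH2 is the NADP-dependent isocitrate dehydrogenase of mitochondria and SUCLA2 a subunit of succinyl-CoA ligase.

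Genes for the upkeep of mitochondrial DNA were called lower in K/VP.5 for 9 of 13 and higher for none, with a median of -0.31, beside 26.1% and 26.2% of all tested genes. The largest of these falls was TK2, a mitochondrial thymidine kinase, at -0.62 ± 0.11 (SE), adjusted p = 0.00032, and the smallest MPV17, at -0.20, and without K562 replicate 1 the count was again 9 lower and none higher. In K562/SSedit-2 SSBP1, the single-stranded DNA binding protein of mitochondria, rose by 0.41 ± 0.07 (SE), adjusted p = 0.000875 and no other gene of the list was called with all libraries, while 2 were called higher and 1 lower without K562 replicate 1. Of the 3 listed topoisomerases found in mitochondria, TOP2B was at 289.9 ± 7.91 CPM in K562 and 186 ± 11.8 CPM in K/VP.5, a log2 fold change of -0.64 ± 0.06 (SE), adjusted p = 2.34e-07. TOP1MT, the mitochondrial type I enzyme, rose in K/VP.5 from 68.4 ± 3.02 to 90.8 ± 1.78 CPM, by 0.41 ± 0.07 (SE), adjusted p = 8.31e-05, and TOP3A rose by 0.38 (adjusted p = 2.34e-05). In K562/SSedit-2 none of the 3 was called, at -0.09 for TOP1MT, -0.06 for TOP3A and -0.04 for TOP2B. TOP2A, the edited gene, was not on this list, and its levels are given above.

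Of 9 genes for mitochondrial transcription, 3 rose and 2 fell in K/VP.5, with POLRMT, the mitochondrial RNA polymerase, at 0.40, TFB1M at 0.28 and MTERF1 at 0.28, and with TFB2M, the initiation factor, at -0.50 and TEFM at -0.37. None was called in K562/SSedit-2. Of 18 genes for processing and decay of mitochondrial RNA, PDE12 (0.28), HSD17B10 (0.24) and LRPPRC (0.15) rose and FASTKD1 (-0.41), TRMT10C (-0.35), GRSF1 (-0.24) and FASTKD2 (-0.20) fell in K/VP.5. In K562/SSedit-2 FASTK (-0.30) and TBRG4 (-0.19) fell. Of the 10 tested regulators of biogenesis, GABPA fell in K/VP.5, at -0.31 ± 0.08 (SE), adjusted p = 0.00351, as did YY1 (-0.23), PPRC1 (-0.29) and TFB2M. NRF1 (0.07), GABPB1 (0.13), ESRRA (0.09), PPARGC1B (0.09) and TFAM (-0.12) were not called, TFB1M rose, and PPARGC1A was not expressed at a testable level. In K562/SSedit-2 PPRC1 alone of them was called, at -0.20 ± 0.07 (SE), adjusted p = 0.0721. Leaving out K562 replicate 1, TFAM was called lower in K/VP.5 (-0.17), POLRMT was called lower in K562/SSedit-2 (-0.33) and GABPA was called higher there (0.28). The same fit lost the K/VP.5 calls of SDHAF2, SCO1, ATPAF2, FASTKD2, MRPL9, MRPL38 and the nuclear copy MTND5P11.

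Of the mitochondrial rRNA genes, MT-RNR1 was at 35.8 ± 11.4 CPM in K562, 23.2 ± 6.50 CPM in K/VP.5 and 17.6 ± 6.09 CPM in K562/SSedit-2, and MT-RNR2 at 41.1 ± 10.4, 23.1 ± 5.53 and 23.2 ± 8.86 CPM. Both were called lower in K/VP.5, MT-RNR1 at -0.62 ± 0.26 (SE), adjusted p = 0.0589 and MT-RNR2 at -0.83 ± 0.24 (SE), adjusted p = 0.00927, and both in K562/SSedit-2, at -1.02 and -0.83. Without K562 replicate 1 the call of MT-RNR1 in K/VP.5 was lost (adjusted p = 0.109). Together they made up at most 0.00919% of the counts of a library, where the mitochondrial members made up 0.267% to 0.689%. How rRNA was handled when the libraries were made is not given in the sources used here. These calls may therefore not reflect the levels of mitochondrial rRNA in the cells. Nuclear copies of mitochondrial genes took up 10996 to 23302 counts per library, and their counts, as a share of those of the mitochondrial members, lay at 7.84% to 11.6% in the K562 libraries. In the K/VP.5 libraries the share was higher, at 13.3% to 14%, and the K562/SSedit-2 libraries had 9.80% to 12.1%. Of the 15 copies that could be tested, MTCO3P29 (0.99), MTCO1P12 (0.91), MTND5P11 (0.76) and MTND4P12 (0.40) rose and none fell in K/VP.5. Reads may be split between a mitochondrial gene and its copy, so the levels of the mitochondrial members are uncertain, and the part of the copies in the differences between lines was not tested.

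Across the 84 nuclear members the log2 fold change in K/VP.5 had a Spearman rho of 0.29 with the exon length of the gene, and that in K562/SSedit-2 a rho of -0.03, as a description over genes that share libraries and depth. Of the 102 members, 52 share at least some exon bases with another annotated gene, and 4 share most of them (NDUFS7, ATP5ME, NDUFC2-KCTD14 and ATP5MF-PTCD1).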

How the data were processed

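RNA-seq gene counts of 12 libraries, 4 for each of 3 lines, were used as deposited. Per the labels and the study's methods, the authors aligned 150-bp paired-end reads to GRCh38 with HISAT2 (2.1.0) and made the raw count table with featureCounts; the annotation release and the strand and multi-mapping settings are not given in the sources used here. Every count column belonged to a labelled sample.

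Groups came from the labels. Genes were kept by filterByExpr (minimum count 10), which left 18626. Counts were scaled by TMM and tested with edgeR's quasi-likelihood test (edgeR 4.0.16, R 4.3.3), fitting all 12 libraries by line, with Benjamini-Hochberg adjustment over all tested genes and a threshold of 0.10. CPM used the scaled totals of tested genes. TPM used summed exon lengths of GENCODE 44, which also gave coordinates, and 60401 of the 60671 gene IDs were found there. Standard errors are the fold change over the square root of F. Precision is limited by 4 libraries per line and by the total counts given above. Alternatives were DESeq2 (1.42.0) size factors and its Wald test, limma voom (3.58.1), upper-quartile factors, mitochondrial genes left out of the scaling, other filters, only the lines compared, adjusted p under 0.05, a replicate block and each library left out. Python 3.11.15, pandas 2.3.3, scipy 1.17.1 and matplotlib 3.10.9 were used for the rest.

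The members, gene lists and rules were chosen with earlier results of these data known. Genes were named by rule: all mitochondrial members, members past 2-fold, the largest non-overlapping rise and fall of each complex at 5 CPM or more in each comparison, isoform families, ATP5IF1 and the SDH genes (48 members). Members named outside it, for completeness of a count, as partners or for their sequence, are NDUFB4, NDUFB5, NDUFS3, NDUFS7, NDUFA11, UQCR10, UQCRFS1, UQCRC1, UQCRH, UQCRHL, ATP5F1B, ATP5F1D, ATP5ME, ATP5MF and NDUFC2-KCTD14. Some called genes of the lists are not reported here.

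Deviations from the line means correlated between equal replicate numbers of K562 and K562/SSedit-2, at 0.135 to 0.292 in all 4 pairs. The number was therefore taken as a block in an alternative fit, while the main fit had no block and ignored this pairing. No source says what a number marks. In simulated data for K/VP.5 versus K562 (18626 genes simulated, 18172 tested), 71.7% of 113 genes changed 1.5-fold and 89.7% of 87 genes changed 2-fold were recovered, with 19 unchanged genes called. The simulation gave all genes the same dispersion, changed no other genes and held no outlying library. Changes below 1.5-fold, as in most members, were not simulated, so these rates do not describe recovery in the real data.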

Additional observations from a re-analysis of the deposited data

Results flagged for a closer look

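In 15 of 135 groups of 4 libraries examined (45 measured quantities in 3 lines), 1 library lay far from the other 3 by Dixon's criterion at the 95% level, which chance alone meets in about 1 group in 20. In 12 of the 15 the library was K562 replicate 1, on the high side. For the mitochondrial members it was at 420.2 CPM for MT-ND1, 625 CPM for MT-ND2, 107 CPM for MT-ND4L, 397 CPM for MT-CYB, 1841 CPM for MT-CO1, 637 CPM for MT-CO2, 1041 CPM for MT-CO3 and 153 CPM for MT-ATP8. For nuclear members it was at 114 CPM for COX7B, 87.1 CPM for NDUFA4, 83.1 CPM for SDHD and 228 CPM for COX6B1. The other cases were in K562/SSedit-2, where replicate 1 was low for MT-ND3 at 27.0 CPM, replicate 3 was low for COX7B at 40.5 CPM and replicate 4 was high for NDUFA5 at 239 CPM. These quantities share libraries, so the cases are not independent of each other.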

How the results depend on the processing

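Among the alternative values of single named members, 2531 stayed on the same side of the threshold, 104 were newly called in the same direction, 85 lost their call and 7 turned from a value that was not called to a called value of the other sign. All 7 came without K562 replicate 1, which gave the upper end of each range over libraries left out. In K/VP.5 these ranges of log2 fold changes were -0.16 to 0.30 for MT-CYB, -0.38 to 0.25 for MT-CO1, -0.71 to 0.30 for MT-CO2 and -0.30 to 0.47 for MT-ATP8, beside -0.03, -0.20, -0.48 and -0.08 with all libraries. In K562/SSedit-2 they were -0.28 to 0.35 for MT-CO1, -0.66 to 0.36 for MT-CO2 and -0.34 to 0.43 for MT-ATP8, beside -0.12, -0.44 and -0.15. Of the 2531, 102 had the other sign without being called in either case. Leaving out 1 library at a time gave, for K/VP.5 versus K562, 7 to 11 nuclear members higher, 28 to 39 lower, 0 to 10 mitochondrial members higher, 0 to 3 lower and 0 to 3 past 2-fold, with a change of the mitochondrial to nuclear log2 ratio of -0.04 to 0.41. The 10 came without K562 replicate 1. Without K562 replicate 2, 3 or 4, 2, 3 and 2 mitochondrial members were called lower, and without K/VP.5 replicate 2 none was higher and 1 was lower. For K562/SSedit-2 versus K562 the ranges were 6 to 24 nuclear members higher, 0 to 7 lower, 0 to 3 mitochondrial members higher, 0 to 1 lower and 0 to 1 past 2-fold, and -0.27 to 0.18 for the ratio. The 24 came without K562 replicate 1 and the 6 without K562/SSedit-2 replicate 4. The 5 nuclear calls on the lower side became 0 without K562 replicate 2 or K562/SSedit-2 replicate 3 or 4, 1 without K562 replicate 1 or K/VP.5 replicate 1, 3 or 4, 2 without K/VP.5 replicate 2 and 3 without K562/SSedit-2 replicate 2. For K562/SSedit-2 versus K/VP.5 they were 35 to 50 nuclear members higher, 8 to 10 lower, 0 mitochondrial members higher, 0 to 3 lower, 4 to 5 past 2-fold, and -0.32 to -0.09 for the ratio. There, the mitochondrial call was lost without K/VP.5 replicate 2 or K562/SSedit-2 replicate 1, and 3 were made without K562 replicate 1.

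Upper-quartile factors gave 14 nuclear members higher and 0 past 2-fold in K/VP.5 versus K562, and 3 lower in K562/SSedit-2 versus K562. With no filter on low counts, 2 mitochondrial members were called higher and 5 lower in K/VP.5 versus K562, 10 nuclear and 7 mitochondrial members lower in K562/SSedit-2 versus K562, and 5 mitochondrial members lower in K562/SSedit-2 versus K/VP.5. The 5 nuclear members lower in K562/SSedit-2 versus K562 became 2 with limma voom, 0 with only the lines compared and 0 at an adjusted p under 0.05, and with only the lines compared 3 mitochondrial members were lower in K562/SSedit-2 versus K/VP.5. The causes were not tested. With the replicate number as a block, 14 nuclear members were higher and 6 lower in K562/SSedit-2 versus K562. In the comparisons with K/VP.5 the numbers did not pair the samples (mean correlation of equal numbers 0.11 and 0.03), and the block gave 12 higher and 36 lower against K562 and 46 higher and 10 lower for K562/SSedit-2.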
